A study of Mus musculus with 6 samples.

Results

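This account follows 42 genes of macroautophagy, out of 24421 genes listed in the deposited count tables, in primary mouse liver sinusoidal endothelial cells under cyclic hydrostatic pressure. The genes were taken by symbol: every ATG, WIPI, GABARAP, LC3 (Map1lc3) and ULK gene of the tables, plus 13 named kinase-complex subunits, regulators and cargo receptors. Of the 42 genes, 41 had enough reads to be tested, as did 12892 genes in all. The HP group (hydrostatic pressure) held 3 samples, loaded for 8 h with a pressure that swung at 0.01 Hz from 101 kPa up to 135 kPa (absolute values). The control group held 3 samples, and all samples carry the same batch label. Both groups came from livers labelled as wild genotype, with the cells picked by beads against CD146, an endothelial surface protein. Both were kept overnight on collagen I and then without serum for 6 h, a state in which autophagy can already be engaged in the controls. Strain, age and sex of the mice, pooling of animals and what the controls went through during those 8 h are not given in the labels. Handling time and pressure therefore cannot be told apart. The comparison asks which of these transcripts differ after pressure loading. The labels do not say that the 3 samples of a group are separate cultures or animals, so the p-values cover only sample-to-sample spread, and that spread may be technical.

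Macroautophagy encloses cytoplasm in a double membrane, the autophagosome, and delivers it to the lysosome. The ULK kinase complex starts the process, a class III phosphatidylinositol 3-kinase complex marks the site with the lipid PI3P, and WIPI proteins read that mark. A pair of ubiquitin-like conjugation systems then attaches proteins of the LC3 and GABARAP family to the growing membrane, where cargo receptors such as p62 (gene Sqstm1) bind them. In liver sinusoidal endothelium, autophagy is known to help keep the specialised state of the cells during injury. Transcript levels do not measure autophagic flux, and several of these proteins are themselves consumed by the process.

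The sequences just before the starts annotated by RefSeq are shown for the members with the largest rises, Sqstm1 and Atg14. They are also shown for Atg3, the only member whose window held the lysosomal gene element described next. They come from RefSeq (GRCm38.p6), where 34 of the 42 genes had a window of 250 bases before to 50 bases after a start. Each stretch runs 5′ to 3′ on the strand of the gene, from 100 bases before the annotated start to 10 bases from it on, with the letters found in capitals.

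Sqstm1: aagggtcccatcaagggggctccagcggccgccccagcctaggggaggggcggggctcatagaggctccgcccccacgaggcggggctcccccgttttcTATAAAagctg
Atg14: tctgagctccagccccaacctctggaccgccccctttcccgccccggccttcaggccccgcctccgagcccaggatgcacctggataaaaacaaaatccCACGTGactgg
Atg3: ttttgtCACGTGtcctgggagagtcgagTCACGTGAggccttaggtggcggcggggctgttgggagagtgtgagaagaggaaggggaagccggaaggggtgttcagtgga

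The Sqstm1 stretch lies at chr11:50210811-50210920 on the minus strand, the Atg14 stretch at chr14:47568425-47568534 on the minus strand and the Atg3 stretch at chr16:45158729-45158838 on the plus strand. GENCODE M21 places the start of Atg14 elsewhere, at 47570649, so the stretch shown lies inside that gene model. The Atg7 window, chr6:114670846-114671145, also lies inside its GENCODE M21 model, which starts at 114643097. Which of these starts the cells use was not tested. In Sqstm1 the capitals mark TATAAA, the letters of the TATA box. In the Atg14 stretch they mark the E-box, CACGTG. In Atg3 they mark the same E-box and, further on, the longer element TCACGTGA. TCACGTGA is the core of the element through which TFEB acts on lysosomal genes, and it contains CACGTG. Searched on both strands, CACGTG stood in 4 of the 34 member genes (11.8%), Atg3, Atg5, Atg7 and Atg14, against 8.09% of 27025 genes with a window, and TCACGTGA stood in 1 (2.94%), against 1.12%. TGACNNNGC, the core of the antioxidant response element that NRF2 binds, stood in 4 members (11.8%), Atg13, Map1lc3b, Tax1bp1 and Ulk2, against 14% of genes. TGATGNAAN, the core of the composite element that ATF4 binds, stood in 0 of the 34 members, against 4.5% of genes. TATAAA, searched for after the sequence was seen, stood in Sqstm1 and Atg4a, 2 of 34 members (5.88%), against 15.7% of genes. In Sqstm1 these letters sit across the RefSeq start itself and inside the GENCODE M21 model, which begins at 50210827. They are therefore not read as a working TATA box. Members that rose, fell or did not pass the test are all among the carriers of these letters, and a match is a description of the sequence only.

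Library totals ran from 12922959 to 18655749 deposited counts. Correlations of log CPM between libraries of a group were 0.9869 to 0.9942 in HP and 0.9941 to 0.9951 in controls, and the 2 lowest both involved HP replicate 3. That library differed from the other HP libraries with transcript length. Over tested genes with under 2000 bases of exon its median log2 ratio to the mean of HP 1 and HP 2 was 0.19, and over genes of at least 10000 bases it was -0.28. Control replicate 2 showed a smaller slope of the same kind (0.09 and -0.13). The sinusoidal marker list was present throughout, with 10 of 10 genes measured and a summed level of 5462 to 6601 CPM in HP and 7481 to 7990 CPM in controls; 7 of them were lower in HP and none was higher. A macrophage list was as abundant, at 5687 to 6138 CPM in HP and 6121 to 6543 CPM in controls over 8 of 8 genes. Of these 2 were higher and 2 lower, with log2 changes between -0.57 and 0.39. Macrophages also express autophagy genes, so the levels below belong to a mixture, and in bulk samples fewer cells of a type and less RNA per cell cannot be told apart. Hepatocyte markers summed to 14.2 to 17.4 CPM in HP and 7.14 to 10.2 CPM in controls, with Tat at 0 in every library. Cholangiocyte markers summed to 2.99 to 4.67 CPM in HP and 1.6 to 2.13 CPM in controls, and stellate cell markers to 159 to 178 CPM in HP and 141 to 152 CPM in controls. Lymphocyte markers summed to 1.8 to 2.99 CPM in HP and 1.98 to 3.35 CPM in controls. Neutrophil markers summed to 0.182 to 0.409 CPM in HP and 0.16 to 0.2 CPM in controls, with S100a9 at 0. The part of these other cells in the results was not tested.

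**Figure D1:**
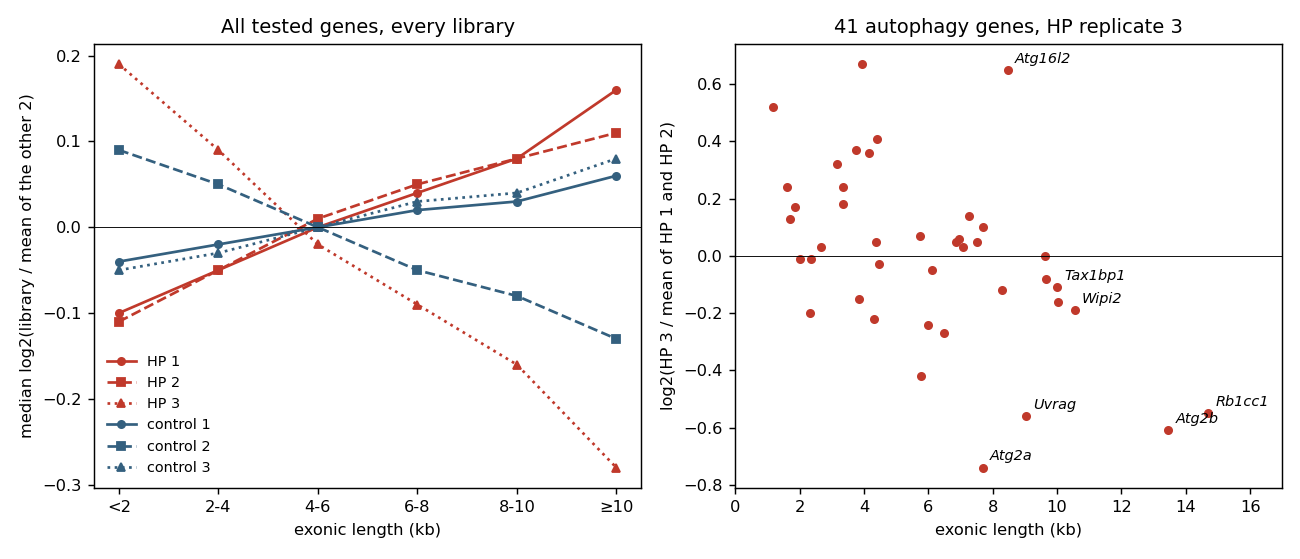
The left panel plots, for each library, the median log2 ratio to the mean of the other 2 libraries of its group over tested genes binned by exonic length in kb, and the right panel plots the log2 ratio of HP 3 to the mean of HP 1 and HP 2 for each of the 41 tested autophagy genes against exonic length. HP 3 lies at 0.19 in the shortest bin and at -0.28 in the longest, and Atg2a, Atg2b, Uvrag and Rb1cc1 lie lowest among the autophagy genes. Members of similar length differed, with Uvrag at -0.56, Atg16l1 at 0.00 and Atg16l2 at 0.65.

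Autophagy genes differed in both directions after pressure, with Sqstm1, Atg14 and Wipi2 the most raised and Atg4c, Atg16l2 and Atg10 the most lowered. Levels are TMM-scaled CPM (a gene's share of its library, with factors for composition), and a log2 fold change is HP over control with its standard error from edgeR. At an adjusted p under 0.05, 12 of the 41 tested genes were higher in HP (29.3%) and 13 were lower (31.7%), beside 33.7% and 35.1% of all 12892 genes tested. The other 16 did not pass. The median log2 change was -0.01 over the 41 genes and -0.02 over all genes. A change of at least 1.5-fold was called for 13 members (31.7%), 4 higher and 9 lower, against 45.4% of all genes, and the median size of a log2 change was 0.31 for members and 0.54 for all genes. For 28 members (68.3%) the 3 HP values lay all above or all below the 3 control values, which was the case for 71.9% of all genes. With library totals and no composition factor, a scaling that moves the median of all genes by -0.213, 7 members were higher and 21 lower, and with upper-quartile factors, which move it by -0.113, 8 were higher and 16 lower. Calls in the same direction under all 4 scalings numbered 7 higher and 13 lower: Sqstm1, Tax1bp1, Atg14, Uvrag, Pik3c3, Wipi2 and Atg16l1 rose, and Nbr1, Calcoco1, Optn, Ulk2, Pik3r4, Wipi1, Atg9b, Atg10, Atg16l2, Atg4a, Atg4c, Gabarap and Gabarapl1 fell.

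**Figure D2:**
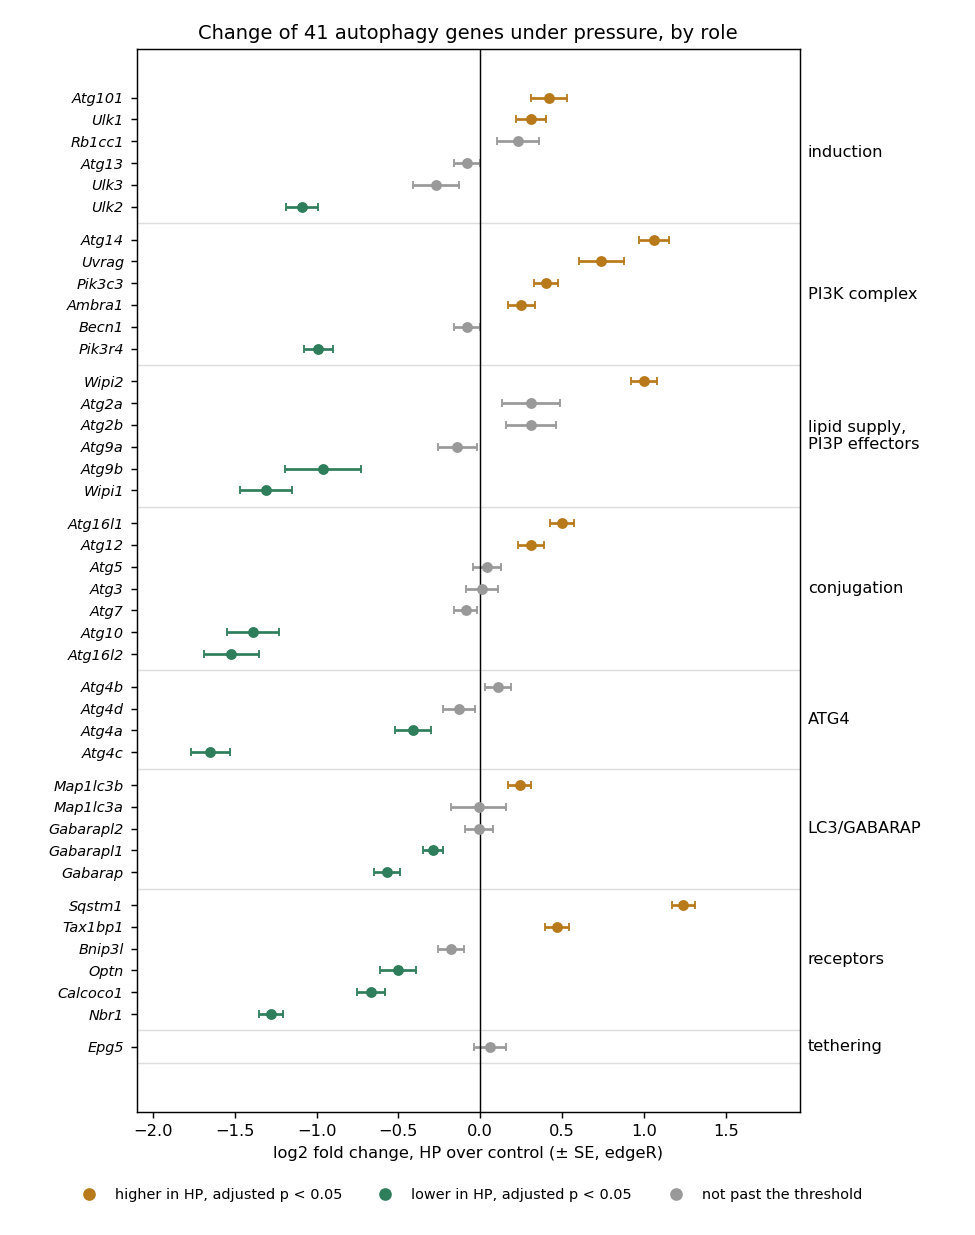
Points give the log2 fold change (HP over control) of the 41 tested genes with bars of 1 standard error, ordered within 8 roles and coloured by call at an adjusted p of 0.05. Most roles hold genes on both sides of 0, from Sqstm1 at 1.24 to Atg4c at -1.65.

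Of the 6 cargo receptors 2 were higher, 3 were lower and 1 did not pass the test. Counts within this and the other roles are small and are to be read against the 33.7% of all tested genes that were higher and the 35.1% that were lower; they single out no role. Sqstm1 encodes p62, which gathers ubiquitin-tagged cargo, hands it to LC3 and also binds KEAP1, the inhibitor of NRF2. It lies at chr11:50199366-50210827 on the minus strand (GRCm38, GENCODE M21) and is protein-coding. Sqstm1 stood at 6510, 6321 and 7281 CPM in HP and at 2834, 2994 and 2714 CPM in controls. The lowest HP value was over 2 times the highest control value. The log2 change was 1.24 ± 0.07 (adjusted p = 2.67e-07). By CPM per kilobase of exon, Sqstm1 ranked 7 among 12387 tested genes with a known length in HP and 23 in controls. Its exons overlap those of Mrnip on the other strand over 580 bases, and its deposited counts were fractional in 3 libraries. Nbr1, a receptor that shares the ubiquitin-binding and LC3-binding design of p62 and works beside it, moved the other way: 82.7, 88.5 and 88.8 CPM in HP against 215, 206 and 209 CPM in controls (log2 change -1.28 ± 0.072, adjusted p = 2.66e-07). The ranges of both genes are far apart between groups.

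Among the other receptors, Tax1bp1, a receptor that also restrains inflammatory signalling, rose, with 358, 343 and 325 CPM in HP and 250, 234 and 258 CPM in controls (0.47 ± 0.072, adjusted p = 0.000194). Calcoco1, a receptor for endoplasmic reticulum and Golgi cargo, fell, with 68.7, 57.5 and 66.2 CPM in HP and 98.7, 104 and 102 CPM in controls (-0.67 ± 0.086, adjusted p = 5.52e-05). Optn (optineurin), a receptor for mitochondria and bacteria, fell too, with 40.6, 43.8 and 54.4 CPM in HP against 64.8, 63.4 and 67.3 CPM in controls (-0.50 ± 0.11, adjusted p = 0.00193). In all of these the groups do not overlap. Bnip3l (NIX), a mitophagy receptor of the outer mitochondrial membrane, stood at 220, 241 and 208 CPM in HP and 246, 243 and 269 CPM in controls. Every HP value of Bnip3l was below the control values, but by a margin that did not pass (-0.18 ± 0.08, adjusted p = 0.0671). It passed as lower without HP replicate 2 (adjusted p = 0.0395), with a minimum mean of 5 CPM (0.0493), with upper-quartile factors (0.00535) and with library totals only (0.00119).

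**Figure D3:**
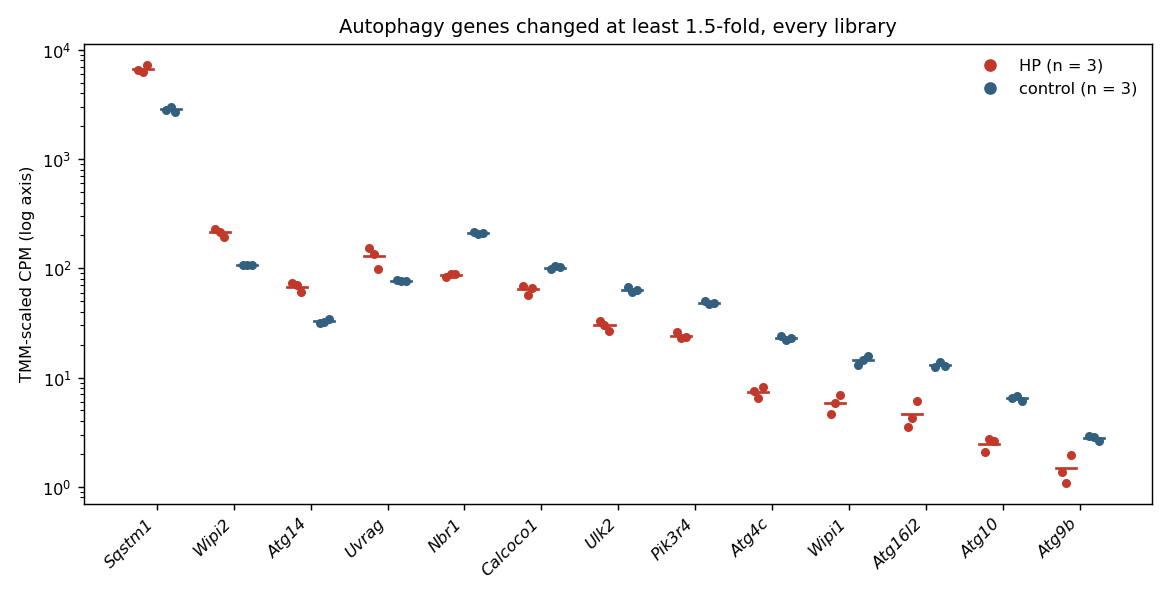
Dots are TMM-scaled CPM (log axis) of single libraries and lines are group means (n = 3 each) for the 13 members called with a change of at least 1.5-fold. HP and control dots are separate for every gene shown, with 4 genes higher in HP on the left and 9 lower on the right.

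Among the genes listed under the induction complex, 2 of 6 tested were higher and 1 was lower, with the kinases Ulk1 and Ulk2 on opposite sides. Ulk3 and Ulk4 were placed in this list by symbol only. Ulk1, the kinase that nutrient-sensing pathways control to start autophagy, stood at 90.2, 83.3 and 71.8 CPM in HP and 64.6, 66.3 and 67 CPM in controls. This is a small difference with HP replicate 3 nearest to the controls (0.31 ± 0.092, adjusted p = 0.0115), and its call was lost without control replicate 1 (0.0504), with upper-quartile factors (0.0622) and with library totals only (0.342). Ulk2, its close paralogue with partly shared function, fell, to 32.7, 30.5 and 26.7 CPM in HP against 67.5, 61.1 and 63.2 CPM in controls (-1.09 ± 0.096, adjusted p = 3.7e-06). Atg101, which stabilises Atg13, had the highest level per kilobase in this group and stood at 33.5, 30.8 and 37.8 CPM in HP and 24.3, 28.7 and 23.2 CPM in controls (0.42 ± 0.11, adjusted p = 0.00745, and 0.141 with library totals only). Atg13, the regulatory subunit, was at 48, 54.3 and 52.9 CPM in HP and 55.4, 53.9 and 54.8 CPM in controls (adjusted p = 0.391, and 0.0102 as lower with library totals only).

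Rb1cc1 (FIP200), the scaffold of the induction complex, depended on HP replicate 3. It has 14690 bases of exon and stood at 107, 109 and 73.7 CPM in HP and 81.1, 81.1 and 85.1 CPM in controls. The first HP libraries lie above all controls and the third lies below them (0.23 ± 0.13, adjusted p = 0.139, and 1.52e-05 with a log2 change of 0.39 without HP replicate 3). Ulk3, a kinase also linked to Hedgehog signalling, was low in both groups, at 8.54, 6.99 and 9.99 CPM in HP and 9.79, 10.2 and 10.5 CPM in controls (adjusted p = 0.114, and as lower 0.0141 without HP replicate 3, 0.043 with upper-quartile factors and 0.0126 with library totals only). Ulk4, a pseudokinase, was not tested, with 0, 1 and 0 deposited counts in HP and 5, 3 and 1 in controls.

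Of the class III PI3-kinase genes, 4 of 6 were higher and 1 was lower, beside 33.7% and 35.1% of all tested genes, a count too small to set this role apart. Atg14, the subunit that directs the complex to autophagosome formation, was at 73, 70 and 61.3 CPM in HP and 31.9, 32.2 and 34.3 CPM in controls, which is about a doubling with no overlap (1.06 ± 0.091, adjusted p = 3.33e-06). Atg14 spans chr14:47540893-47570649 on the minus strand and is protein-coding. Uvrag, which takes the place of Atg14 in a second complex that serves endosomes and autophagosome maturation, also rose, with 153, 135 and 97.9 CPM in HP and 78, 76.6 and 77 CPM in controls (0.74 ± 0.14, adjusted p = 0.000661). The HP values of Uvrag are spread, replicate 3 being the lowest, and its log2 change was 0.90 without that library. Its exons overlap an antisense gene, Gm45187, over 1589 bases. Pik3c3 (VPS34), the catalytic subunit shared by both complexes, was at 66, 64 and 63.9 CPM in HP and 48.1, 48.8 and 49.8 CPM in controls (0.40 ± 0.074, adjusted p = 0.000639).

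Pik3r4 (VPS15), the kinase-like partner on which the catalytic subunit depends, fell to 26, 23.2 and 23.3 CPM in HP against 49.8, 46.8 and 48 CPM in controls (-0.99 ± 0.089, adjusted p = 4.21e-06). Becn1 (Beclin 1), the core scaffold, stood at 98.6, 87.4 and 94.6 CPM in HP and 95.2, 101 and 100 CPM in controls, with overlapping groups (-0.08 ± 0.078, adjusted p = 0.373, and 0.00557 as lower with library totals only). Its exons overlap those of Cntd1 on the other strand over 3104 bases. Whether the counting used the strand is not given, so reads of the pair may be mixed in these counts. Ambra1, which links Beclin 1 to the ULK complex, was at 65.5, 60.7 and 60.8 CPM in HP and 56.2, 52.1 and 49.4 CPM in controls (0.25 ± 0.083, adjusted p = 0.0221). This call was lost without HP replicate 1 (0.0667), without control replicate 2 (0.0721) or 3 (0.101), with upper-quartile factors (0.176) and with library totals only (0.746).

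Among the genes for membrane supply and PI3P reading, 1 of 6 was higher and 2 were lower. Wipi2, the PI3P effector that brings the ATG16L1 complex to the forming membrane, rose, with 230, 216 and 195 CPM in HP and 108, 107 and 107 CPM in controls (1.00 ± 0.08, adjusted p = 2.01e-06). It spans chr5:142627698-142670588 on the plus strand. Wipi1, its paralogue, fell, with 4.61, 5.9 and 6.96 CPM in HP and 12.9, 14.5 and 15.8 CPM in controls (-1.31 ± 0.16, adjusted p = 3.16e-05). Both genes have separate groups, in opposite directions. Atg9b, the less widely expressed paralogue of the lipid scramblase Atg9a, had few reads and fell, with deposited counts of 22.5, 18 and 24.5 in HP and 58, 54 and 40 in controls (-0.96 ± 0.23, adjusted p = 0.00388). Its exons overlap 294 bases of Nos3 (endothelial nitric oxide synthase) on the other strand, and Nos3 averaged 27.9 CPM in HP and 82.6 CPM in controls, so the count of Atg9b is uncertain.

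Atg9a was at 45.9, 44.6 and 33.7 CPM in HP and 50, 41.7 and 45.9 CPM in controls (adjusted p = 0.322, and 0.0191 as lower with library totals only). Atg2a and Atg2b, the paired lipid-transfer proteins that feed the growing membrane, behaved like Rb1cc1 across libraries. Atg2a stood at 68.2, 55.5 and 37.1 CPM in HP and 47.5, 41.2 and 41 CPM in controls (0.31 ± 0.18, adjusted p = 0.137). Atg2b stood at 88.9, 85.8 and 57.4 CPM in HP and 67.1, 55.8 and 64.6 CPM in controls (0.31 ± 0.15, adjusted p = 0.085). In both, the first HP libraries are above the controls and replicate 3 is not. Without HP replicate 3 both passed as higher, Atg2a at 0.52 (adjusted p = 9.84e-06) and Atg2b at 0.48 (4.12e-06).

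Of the conjugation enzymes, 2 of 7 were higher and 2 were lower. Atg16l1, the subunit that sets where LC3 is attached, rose, with 64.4, 67.8 and 66.2 CPM in HP and 45.7, 47.7 and 46.6 CPM in controls (0.50 ± 0.075, adjusted p = 0.000152). Atg16l2, a paralogue with less part in canonical autophagy, fell, with 3.55, 4.25 and 6.14 CPM in HP and 12.6, 14 and 12.7 CPM in controls (-1.52 ± 0.17, adjusted p = 2.49e-05). Atg10, the E2-like enzyme that joins ATG12 to ATG5, fell as well, with 2.06, 2.74 and 2.62 CPM in HP and 6.49, 6.83 and 6.08 CPM in controls (-1.39 ± 0.16, adjusted p = 2.99e-05). Behind these lie 33, 45 and 32 deposited counts in HP and 130, 128 and 92 in controls. Atg12, the ubiquitin-like protein that Atg10 handles, was at 86, 92 and 95.1 CPM in HP and 68.7, 77.2 and 73.8 CPM in controls (0.31 ± 0.081, adjusted p = 0.00525), a call lost with upper-quartile factors (0.0579) and with library totals only (0.306).

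The other conjugation genes did not pass. Atg3, the E2-like enzyme for LC3 and the gene whose promoter stretch holds both marked elements, stood at 67.5, 70.7 and 86.1 CPM in HP and 70.9, 77.5 and 73.9 CPM in controls (0.01 ± 0.1, adjusted p = 0.929). Atg5, the partner of ATG12, stood at 44.4, 49.1 and 46.5 CPM in HP and 48.1, 42.9 and 45.3 CPM in controls (adjusted p = 0.698). Atg7, the E1-like enzyme of both systems, was at 58.6, 58.9 and 61.1 CPM in HP and 64, 62.8 and 63 CPM in controls. Its groups do not overlap, yet the change was -0.09 ± 0.073 (adjusted p = 0.301, and 0.0359 and 0.00442 as lower with upper-quartile factors and library totals only).

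ATG4 proteases trim LC3 and GABARAP precursors and free them again from membranes. Of the 4 genes 2 were lower and none was higher. Atg4c showed the largest fall of all members, with 7.54, 6.44 and 8.27 CPM in HP and 24.1, 22.2 and 23.2 CPM in controls (-1.65 ± 0.12, adjusted p = 9.83e-07). It spans chr4:99193934-99259787 on the plus strand. Its deposited counts were not whole in 5 of 6 libraries, so reads shared with other loci are possible. The same limit holds for other members, among them Atg4a and Epg5 (4 libraries each) and Sqstm1, Becn1 and Atg4d (3 each). Atg4a fell, with 9.6, 10.3 and 10.2 CPM in HP and 13, 12.9 and 14.1 CPM in controls (-0.41 ± 0.11, adjusted p = 0.00586). Atg4b, the main protease for this family and the one with the highest level per kilobase here, was at 61, 66.4 and 58.5 CPM in HP and 57.5, 57.8 and 57.3 CPM in controls (0.11 ± 0.079, adjusted p = 0.242). Per kilobase, Atg4b and Atg4c were about equal in controls (6.95 and 6.91 CPM) and apart in HP (7.49 and 2.21 CPM). Atg4d was at 20.3, 21.8 and 23.2 CPM in HP and 24.4, 25 and 22.1 CPM in controls (adjusted p = 0.247, and 0.012 as lower with library totals only), and its exons overlap 1405 bases of Kri1 on the other strand.

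In the LC3 and GABARAP family 1 of 5 genes was higher and 2 were lower, and none reached 1.5-fold. Gabarap, named for its binding to a GABA receptor and active late in autophagosome closure, fell, with 325, 341 and 376 CPM in HP and 486, 547 and 516 CPM in controls (-0.57 ± 0.078, adjusted p = 8.15e-05). Gabarapl1 fell less, with 402, 381 and 387 CPM in HP and 475, 477 and 480 CPM in controls (-0.29 ± 0.062, adjusted p = 0.00172). Map1lc3b (LC3B), whose lipidated protein is the usual autophagosome marker, stood at 292, 287 and 301 CPM in HP and 238, 261 and 247 CPM in controls (0.24 ± 0.069, adjusted p = 0.0102). That call was lost without control replicate 1 (0.0683), with upper-quartile factors (0.153) and with library totals only (0.757). Gabarapl2 stood at 82, 75 and 68.3 CPM in HP and 74.5, 77 and 76.2 CPM in controls (adjusted p = 0.887, and 0.0247 as lower with library totals only), and Map1lc3a at 15.7, 13.4 and 20.9 CPM in HP and 17.6, 18.2 and 13.8 CPM in controls (adjusted p = 0.977). Deposited counts of Gabarap, Gabarapl1 and Gabarapl2 were fractional in 3, 4 and 2 libraries, so reads may be split with near-identical copies.

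Within the family, shares do not depend on library scaling. Per kilobase of exon, Gabarap made up 40.3% ± 2.08 in HP and 46.9% ± 1.25 in controls (SD, n = 3 each), and Map1lc3b made up 8.35% ± 0.0612 in HP and 5.54% ± 0.0902 in controls. Neither pair of ranges overlaps, with Map1lc3b between 8.28% and 8.39% in HP and between 5.47% and 5.64% in controls. Gabarapl1 held 41.5% ± 1.63 in HP and 39.8% ± 1.23 in controls, Gabarapl2 6.92% ± 0.78 and 5.47% ± 0.0923, and Map1lc3a 3% ± 0.599 and 2.35% ± 0.333. The 2 most abundant transcripts per length thus belonged to the GABARAP branch in every library. These shares use the union of all annotated exons, which for Map1lc3b is 7517 bases against 1844 for Gabarap, and by counts alone Map1lc3b held 26.1% in HP and 18.6% in controls.

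**Figure D4:**
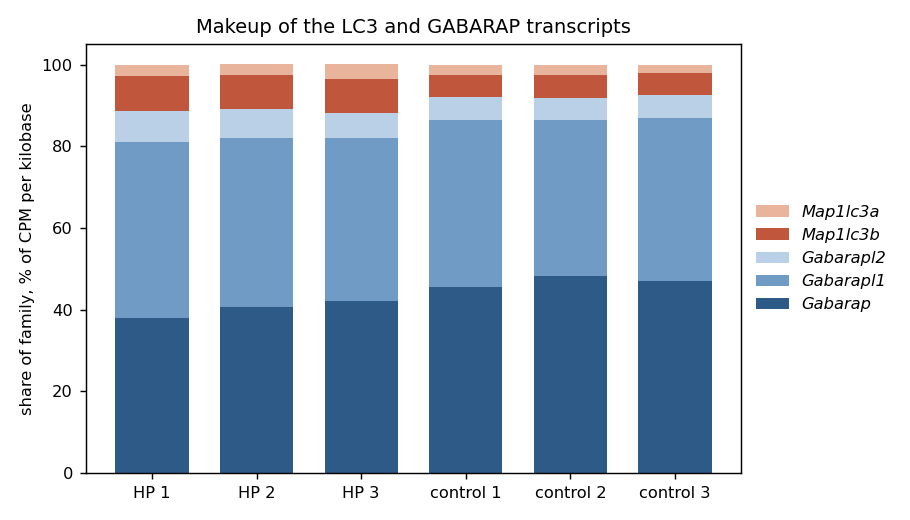
Bars show, for each library, the share of each LC3 and GABARAP gene in the family's summed CPM per kilobase of exon, in percent. The Map1lc3b segment lies between 8.28% and 8.39% in the HP libraries and between 5.47% and 5.64% in the controls, while Gabarap is the smaller in HP.

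Epg5, the tether that joins autophagosomes to late endosomes and lysosomes, stood at 35.1, 42.9 and 35 CPM in HP and 36.8, 34.6 and 37.4 CPM in controls, with overlapping groups (0.06 ± 0.1, adjusted p = 0.625).

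Ratios between related genes do not depend on library scaling, since both genes come from the same library. The pairs were chosen after the values were seen, each as a gene that rose over a gene that fell. Higher ratios in HP were thus fixed by the choice, and the ratios are given as a description without a test. The ratio of Ulk1 to Ulk2 per kilobase was 2.54, 2.52 and 2.48 in HP and 0.881, 0.999 and 0.976 in controls. The ratio of Wipi2 to Wipi1 was 20.8, 15.4 and 11.7 in HP and 3.49, 3.09 and 2.82 in controls, and that of Atg16l1 to Atg16l2 was 15.9, 14 and 9.49 in HP and 3.19, 3 and 3.23 in controls. In these paralogue pairs the ratio was 2.64-, 4.98- and 4.09-fold higher in HP, with no overlap between the groups. Among partners in a complex, Pik3c3 over Pik3r4 was 5.49, 5.96 and 5.94 in HP and 2.09, 2.25 and 2.25 in controls. Sqstm1 over Nbr1 was 161, 146 and 168 in HP and 27, 29.7 and 26.6 in controls, a 5.7-fold difference. Tax1bp1 over Calcoco1 was 2.2-fold and Map1lc3b over Gabarap 1.76-fold higher in HP. A ratio shows unequal change and not which gene moved.

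**Figure D5:**
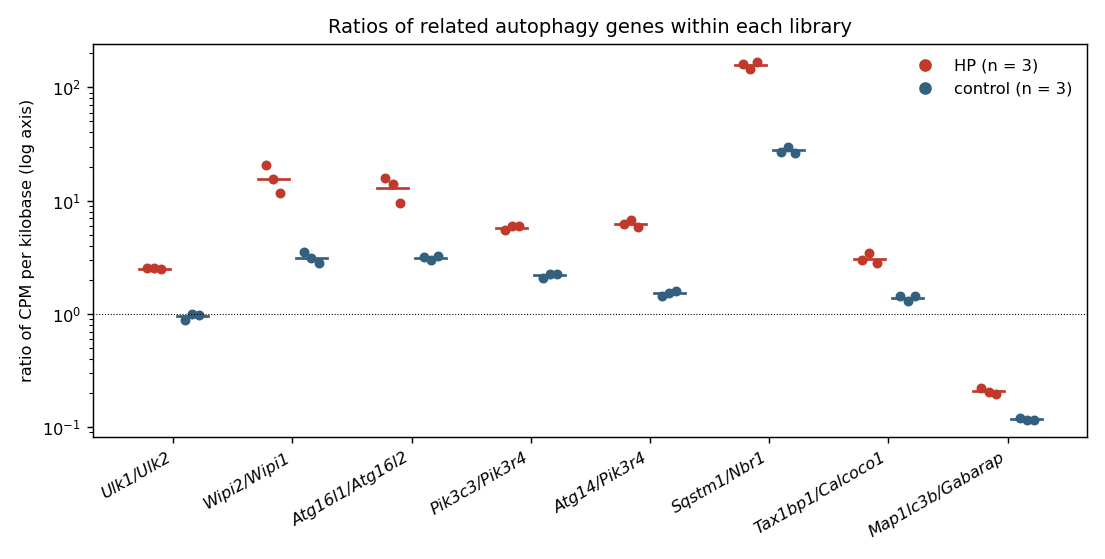
Dots are ratios of CPM per kilobase between the named genes within single libraries (log axis), lines are geometric means of 3 libraries, and the dotted line marks a ratio of 1. HP dots lie above control dots in all 8 pairs, from Map1lc3b over Gabarap (about 0.2 in HP) to Sqstm1 over Nbr1 (146 to 168 in HP). This direction was fixed by the choice of pairs, made after the values were seen, with the gene that rose on top.

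Genes of amino acid and energy sensing act upstream of the ULK complex. The counts for this and the other lists outside the 42 genes stand beside 33.7% higher and 35.1% lower among all tested genes, and nothing is called particular to a list from them. Of 33 tested nutrient sensing genes 12 were higher and 7 lower, with a median log2 change of 0.16. Sesn2, a leucine-sensing inhibitor of mTORC1, averaged 447 ± 81.6 CPM in HP and 90.6 ± 6.18 CPM in controls (SD, n = 3 each; 2.30 ± 0.12, adjusted p = 1.99e-07). Ddit4 (REDD1), another mTORC1 inhibitor, averaged 111 ± 21 CPM in HP and 36.9 ± 1.09 CPM in controls (1.59 ± 0.12, adjusted p = 1.68e-06). Rheb, which activates mTORC1, rose too (0.93 ± 0.069, adjusted p = 1.25e-06), as did the mTOR subunit gene Mlst8 (1.48 ± 0.1, adjusted p = 8.74e-07). The genes that rose here include both inhibitors and activators of mTORC1. Among those that fell were Sesn1, a paralogue of Sesn2 (-1.38 ± 0.12, adjusted p = 3.46e-06), and Lamtor2 (-1.49 ± 0.15, adjusted p = 1.04e-05).

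Of 13 transcription factors known to act on autophagy genes 7 were higher and 4 lower, against 33.7% and 35.1% of all tested genes. Atf4, the effector of the integrated stress response, averaged 1520 ± 81.5 CPM in HP and 612 ± 29 CPM in controls (1.31 ± 0.069, adjusted p = 1.71e-07), and Ddit3 (CHOP) averaged 149 ± 37.2 CPM in HP and 57 ± 5.73 CPM in controls (1.39 ± 0.15, adjusted p = 1.97e-05). Trp53 rose by 0.71 ± 0.078 on the log2 scale (adjusted p = 1.77e-05) and Foxo4, a FOXO factor, fell (-0.63 ± 0.1, adjusted p = 0.000229). Of the other factors whose elements were searched for above, Nfe2l2 (NRF2) rose (0.32 ± 0.071, adjusted p = 0.00223) and Tfeb fell (-0.84 ± 0.15, adjusted p = 0.000482). The paralogues of Tfeb went both ways. Tfe3 (0.37 ± 0.08, adjusted p = 0.00187) and Tfec (0.56 ± 0.089, adjusted p = 0.000233) rose, and Mitf fell (-0.34 ± 0.12, adjusted p = 0.0263). Tfe3 averaged 113 CPM and Tfec 126 CPM in HP, against 11.3 CPM for Tfeb. A link between these factors and the members was not tested.

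Other autophagosome formation genes had 5 of 15 higher and 5 lower, against 33.7% and 35.1% of all tested genes. Tmem41b, a lipid scramblase of the endoplasmic reticulum, rose, with 204 ± 8.38 CPM in HP and 82.7 ± 1.79 CPM in controls (1.30 ± 0.073, adjusted p = 2.44e-07), and Wdr45b (WIPI3), a further PI3P effector, rose by 0.94 ± 0.089 (adjusted p = 6.37e-06). Tecpr1, which binds lysosomal membranes and the ATG12 to ATG5 conjugate, fell, with 49.1 ± 5.45 CPM in HP and 192 ± 13.9 CPM in controls (-1.97 ± 0.099, adjusted p = 1.42e-07). Tbc1d5, a Rab GTPase-activating protein, fell as well (-1.59 ± 0.12, adjusted p = 1.17e-06). Fusion genes had 7 of 17 higher and 8 lower, beside the same background of 33.7% and 35.1%. Vps39, a subunit of the HOPS tether, averaged 35.1 ± 6.38 CPM in HP and 110 ± 0.405 CPM in controls (-1.66 ± 0.12, adjusted p = 9.79e-07) and Plekhm1, a HOPS-binding adaptor, fell too (-0.91 ± 0.082, adjusted p = 4.68e-06). The other HOPS subunits went both ways. Vps33a and Vps11 rose (0.55 ± 0.068 and 0.37 ± 0.08, adjusted p = 3.9e-05 and 0.00176). Vps16 and Vps41 fell (-0.56 ± 0.099 and -0.37 ± 0.076, adjusted p = 0.000501 and 0.00151), and Vps18 did not pass (adjusted p = 0.0872). Arl8a, a GTPase of lysosome movement, and the SNARE gene Ykt6 rose (0.90 ± 0.075 and 0.82 ± 0.072, adjusted p = 2.8e-06 and 3.79e-06).

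Receptors and mitophagy genes outside the 42 had 2 of 16 higher and 6 lower, against 33.7% and 35.1% of all tested genes, with a median log2 change of -0.19. Ccpg1 and Rtn3, receptors for turnover of the endoplasmic reticulum, fell, Ccpg1 to 36.1 ± 1.17 CPM in HP against 60.2 ± 1.04 CPM in controls (-0.74 ± 0.078, adjusted p = 1.29e-05) and Rtn3 by a smaller step (-0.49 ± 0.069, adjusted p = 9.5e-05). Other receptors of this kind did not pass: Sec62 (0.16 ± 0.067, adjusted p = 0.0563), Tex264 (0.19 ± 0.098, adjusted p = 0.113) and Fam134b (-0.51 ± 0.25, adjusted p = 0.0975). Nufip1, a receptor for ribosomes, and Tollip, an adaptor that also dampens Toll-like receptor signalling, rose (0.95 ± 0.1 and 0.66 ± 0.072, adjusted p = 1.31e-05 and 1.79e-05). The medians of the fusion list and of the formation list were -0.21 and -0.09, and that of the transcription factors 0.32, beside -0.02 for all genes.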

How the data were processed

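RNA of 6 samples was sequenced as single reads from stranded mRNA libraries, per the labels' protocols. The submitters' processing notes name TopHat2 2.2.1, Cufflinks 2.2.1 and mm10, without their roles. Which tool counted the reads, on which strand and annotation, is not given in the sources used here. Values per gene symbol, as deposited, are expected counts, some of them fractional, and whole numbers nearest to them were used. The low-count filter was filterByExpr (minimum count 10, total 15), and genes were scaled with TMM and compared in R 4.3.3 with the quasi-likelihood test of edgeR 4.0.16, with no covariate and with Benjamini-Hochberg adjustment over all 12892 genes. Exon lengths, spans and overlaps came from GENCODE M21 (GRCm38, the build also named mm10). The members and gene lists were chosen with earlier results of these data known. Every member is named. From each outside list up to 4 genes past the threshold with the smallest p are named. Sesn1, Lamtor2, Nfe2l2, Tfeb, Tfe3, Tfec, Mitf, Vps11, Vps16, Vps18, Vps33a, Vps41, Sec62, Tex264 and Fam134b were named in addition, outside this rule. The script was tested on simulated data. Alternatives were DESeq2 1.42.0, limma-voom (limma 3.58.1), other factors, filters and thresholds, the sample number as a block, and leaving out each sample. The labels do not say that equal sample numbers belong together, so they were not treated as pairs. Deviations of equal numbers correlated at 0.129, -0.23 and -0.133, and those of unequal numbers at -0.17 to 0.291. With 3 libraries in each group, these correlations cannot decide whether samples were paired.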

Additional observations from a re-analysis of the deposited data

How the results depend on the processing

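No member changed direction between calls under any alternative run, and 7 higher and 13 lower calls held in all of them, except that Atg9b and Atg10 could not be tested with a minimum mean of 5 CPM. DESeq2, limma-voom, RLE factors, no low-count filter and the sample number as a replicate block each gave 12 members higher and 13 lower, and the block gave 8384 called genes among all tested, against 8871. Library totals only gave 7 higher and 21 lower members with a median of -0.23, and upper-quartile factors 8 and 16 with a median of -0.13; these scalings move the median of all genes by -0.213 and -0.113. An adjusted p of 0.01 left 9 higher and 13 lower. Leaving out each sample gave 10 to 15 members higher, 13 to 14 lower, medians of -0.09 to -0.01 and 7981 to 9746 called genes. The gains without HP replicate 3 were Rb1cc1, Atg2a, Atg2b and Ulk3. By counts in place of counts per kilobase, family shares in HP and controls were 30.9% and 38.7% for Gabarap, 34.7% and 35.8% for Gabarapl1, 1.48% and 1.24% for Map1lc3a and 26.1% and 18.6% for Map1lc3b, and 5.69% for Gabarapl2 in controls; the lengths used account for these differences. At 22.5 or fewer counts in HP 1 and HP 2, Atg9b is the member with the least depth among those tested.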
